A study of Equus caballus with 21 samples.

Results

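Motile cilia genes were followed across the layers of the endometrium of horses, sampled on day 12 in pregnant and in cyclic mares. Members were chosen by name: a symbol beginning with DNAH, DNAI, DNAAF, CFAP, RSPH or TEKT and a number, or one of FOXJ1, ENKUR, HYDIN, SPAG6, SPAG16, SPAG17, CCDC39 and CCDC40. Of the 10307 genes in the deposited table of 21 libraries, 72 carried such a name. Each library held the RNA of luminal epithelium (LE), glandular epithelium (GE) or stroma (S), cut by laser from a frozen uterine biopsy of a warmblood mare. Cyclic mares gave 5 luminal, 4 glandular and 2 stromal libraries, and pregnant mares gave 4, 4 and 2.

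All mares had received human choriogonadotropin to induce ovulation, and those biopsied in pregnancy had also been inseminated with fresh cooled semen. The letters B, C, J, M and U name 5 mares, while the design text counts 6. Mares B, C, M and U gave luminal and glandular libraries in both states, so the groups are not independent sets of animals. Captured areas can carry cells of a neighbouring layer, and each library began from 1 ng of total RNA, amplified with a kit made for single cells. In bulk RNA of this kind, fewer ciliated cells and less cilia RNA per cell cannot be told apart.

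A motile cilium beats by the sliding of paired microtubules against one another. Dynein arms supply the force, and the radial spokes and the central apparatus regulate the stroke. The transcription factor FOXJ1 switches on most genes of this machinery in multiciliated cells, dynein assembly factors put the arms together in the cytoplasm, and proteins inside the microtubule wall strengthen it. In the uterus, ciliated cells stand among secretory cells of the lining epithelium and at the mouths of the glands.

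Total counts per library ran from 136259 to 1467510, so 1 count was worth between 0.567 and 6.82 CPM, the count as a rate per scaled library size. Markers of the captured layers were mostly, but not in every library, highest in the labelled layer. The 5 gland secretory genes summed to 15800 to 53800 CPM in glandular, 1290 to 4860 CPM in luminal and 864 to 5660 CPM in stromal libraries. Of these, SERPINA14 stood higher in luminal epithelium. Stromal fibroblast genes (8 genes) summed to 4670 to 11000 CPM in stroma, against 537 to 5060 CPM in luminal and 310 to 1620 CPM in glandular libraries. The luminal maximum belonged to the pregnant library of mare M, which also had the lowest total count, and it exceeded the 4670 CPM of the stromal library from the same biopsy. That stromal library in turn held the stromal maximum of the gland genes, 5660 CPM, which is more than any luminal library held. The epithelial genes (6 genes) summed to 14900 CPM in 1 gland library, that of cyclic mare M, and to 865 to 1880 CPM in the other 7. The high sum was EPCAM alone (14900 CPM). In that library KRT18, CDH1 and ELF3 stood at 6.82 CPM each, CLDN4 at 13.6 CPM and CLDN7 at 0. In luminal epithelium the 6 genes summed to 569 to 3010 CPM and in stroma to 59.9 to 551 CPM.

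The luminal epithelium was the layer with the cilia transcripts. The 72 genes together stood at 4856 to 9201 CPM in the 9 luminal libraries (7037 ± 1550, SD), at 502.2 to 2948 CPM in the 8 glandular libraries (1219 ± 765) and at 509 to 563.4 CPM in the 4 stromal libraries (545 ± 24.8). No luminal library overlapped with any glandular or stromal one. In each of the 8 biopsies with both epithelia the luminal sum was the larger, by 2.88 to 12.1 times with a median of 7.23. In the 4 biopsies with stroma it was larger by 8.87 to 16.3 times. As a share of all counts, cilia genes took 0.528% to 0.981% of a luminal library. They took 0.0337% to 0.314% of a glandular and 0.0253% to 0.0741% of a stromal library, with exact 95% binomial intervals that cover counting error only (0.507% to 0.55% for the smallest luminal share, 0.3% to 0.328% for the largest glandular one). All counts include ribosomal RNA, which took 0.351% (cyclic glandular M) to 67.1% (pregnant stromal M, the smallest share). Without ribosomal RNA or TMM scaling, sums were 7595 to 13100 CPM in luminal, 536.4 to 4549 in glandular and 662.7 to 941.8 in stromal libraries.

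**Figure D1:**
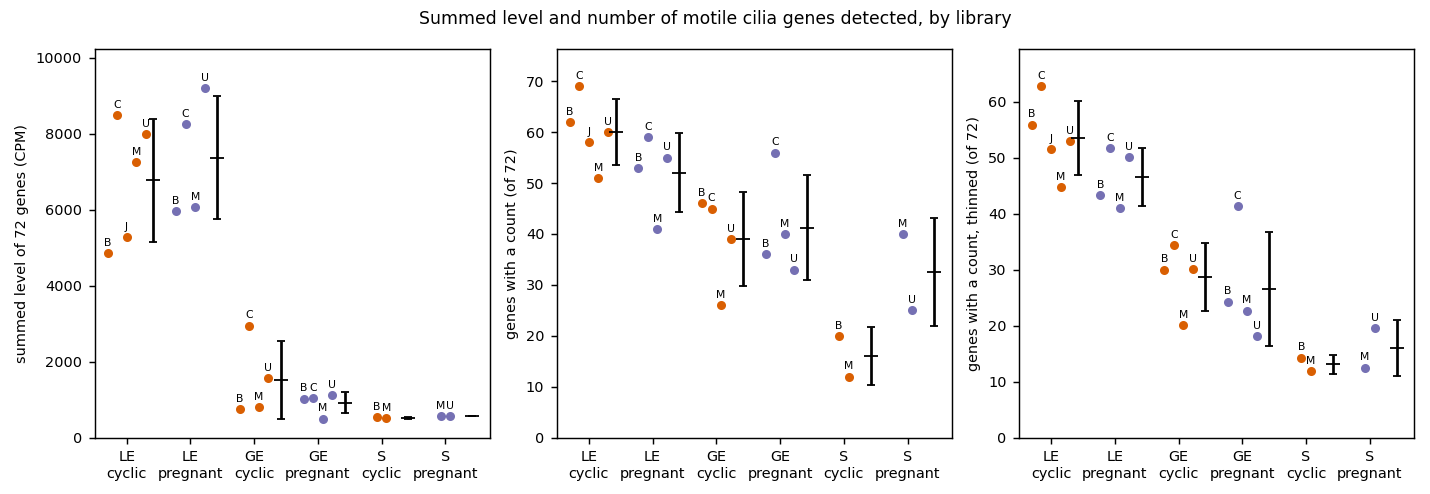
Points are single libraries lettered by mare, in cyclic (orange) and pregnant (purple) groups of each layer, with mean and SD in black; the panels give the summed level of the 72 genes in CPM, the number of them with a count, and that number expected after thinning every library to the smallest total. All luminal libraries lie above 4850 CPM and all others at 2948 CPM or below.

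Detection followed the same order of layers. A luminal library held a count for 41 to 69 of the 72 genes, a glandular one for 26 to 56 and a stromal one for 12 to 40. Thinned to the depth of the smallest library, 41 to 62.8 genes would be seen in luminal, 18.1 to 41.3 in glandular and 11.9 to 19.6 in stromal libraries, so the ranges of the epithelia touched. Thinning used totals with ribosomal RNA, so libraries rich in it kept fewer other counts. Pregnant stromal M, with 67.1% ribosomal RNA, went from 40 to 12.5 genes. In luminal epithelium 20 of the 72 genes had a count in every library (20.7% of all 10307 genes did) and 0 had none (0.572% of all genes). In stroma 5 had a count in every library (18.4% of all genes did) and 19 had none (14.4% of all genes). Glandular epithelium had 7 in every library (26.5% of all genes) and lacked 6 altogether (0.999% of all genes): the microtubule inner proteins ENKUR and CFAP95, the assembly factors DNAAF11 and DNAAF5, the radial spoke gene RSPH10B, and CFAP57. Set against 3 counts over all glandular libraries (0.533 CPM), pooled luminal levels were at least 73.7-fold higher for DNAAF11, 70.3-fold for CFAP57, 64.8-fold for ENKUR, 49.7-fold for CFAP95 and RSPH10B, and 16-fold for DNAAF5.

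**Figure D2:**
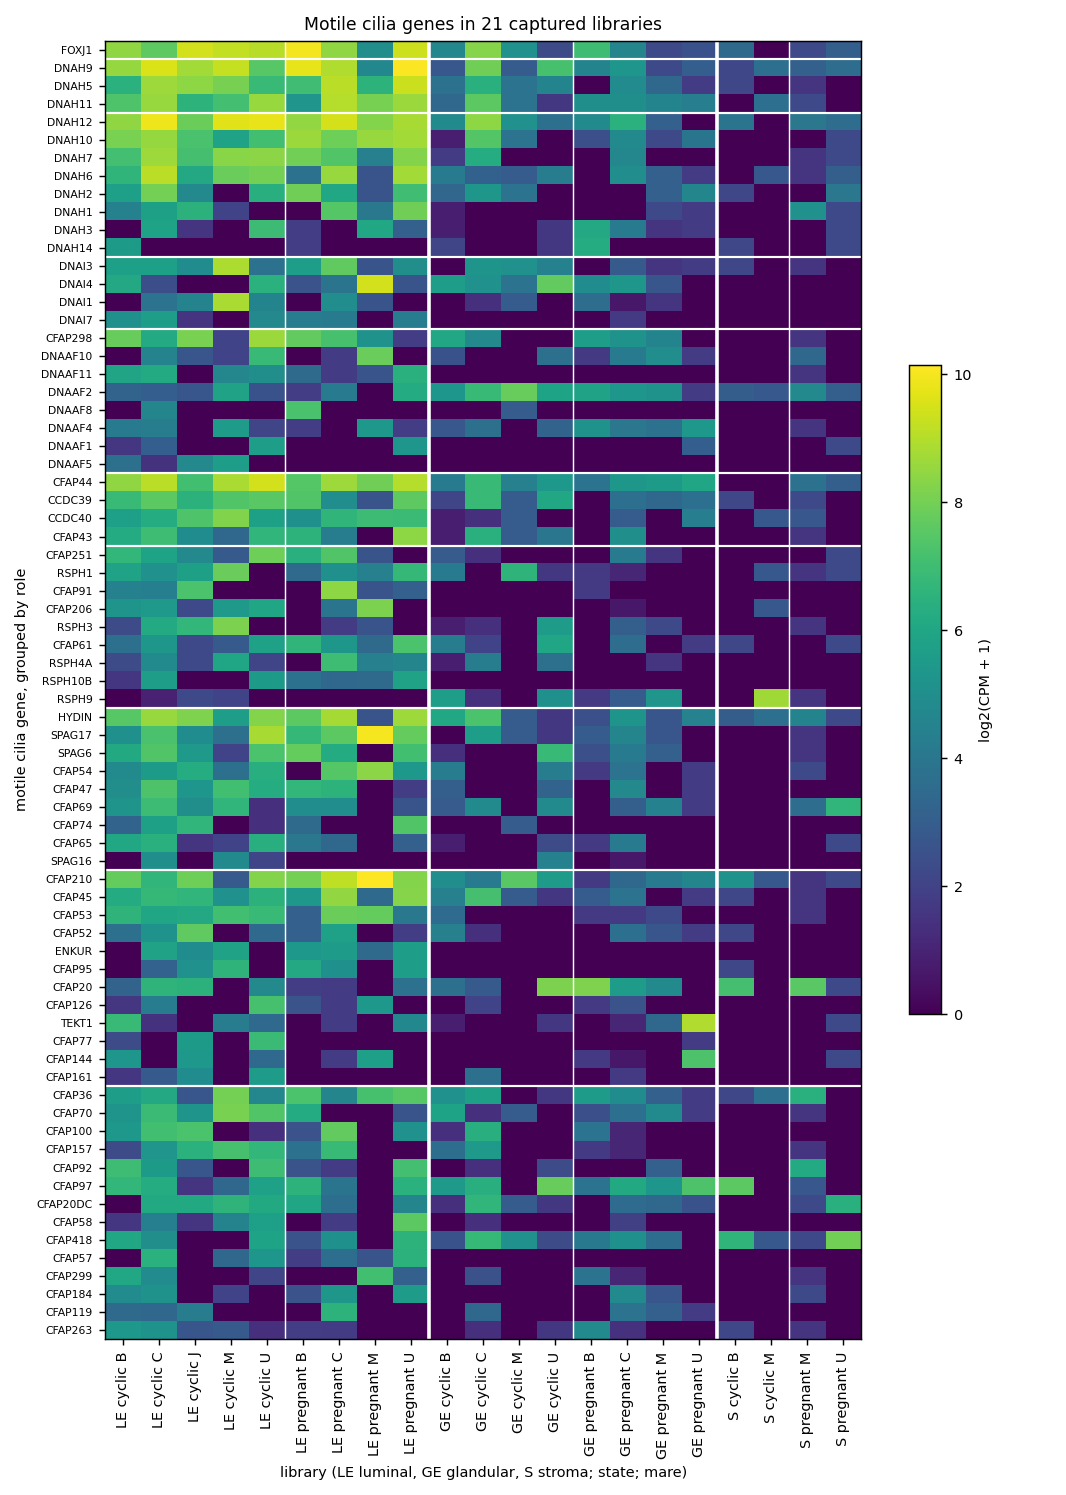
Rows are the 72 genes grouped by role, columns the 21 libraries ordered by layer, state and mare, and colour is log2(CPM + 1). The luminal columns are the brightest, above all for FOXJ1 and the DNAH genes, with scattered gaps in single libraries, and the stromal columns are mostly at 0.

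FOXJ1 (Entrez gene 100147129), the factor that drives the program, stood at 353 (B), 194 (C), 695 (J), 588 (M) and 535 CPM (U) in cyclic luminal libraries. In pregnant luminal libraries it stood at 999 (B), 354 (C), 30.9 (M) and 668 CPM (U). The low value, in pregnant mare M, rested on 6 counts in the shallowest library. Glandular FOXJ1 was 24.7 (B), 313 (C), 34.1 (M) and 4.18 CPM (U) in the cycle and 125 (B), 23.8 (C), 3.76 (M) and 4.83 CPM (U) in pregnancy. The cyclic glandular library of mare C thus held more FOXJ1 than the luminal library of the same biopsy, the only such case in 8 biopsies. The luminal values of cyclic C and pregnant M lay within the glandular range. Stromal FOXJ1 was 10.5 (cyclic B), 0 (cyclic M), 3.77 (pregnant M) and 7.51 CPM (pregnant U), each from at most 3 counts.

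DNAH9 (100073091), a motor heavy chain of the outer dynein arm, stood at 367 (B), 750 (C), 427 (J), 613 (M) and 183 CPM (U) in cyclic luminal libraries. The pregnant ones held 870 (B), 493 (C), 25.8 (M) and 1076 CPM (U). In glands it was 5.76 (B), 247 (C), 6.82 (M) and 146 CPM (U) in the cycle, then 22.8 (B), 39.1 (C), 3.76 (M) and 7.24 CPM (U) in pregnancy. Luminal DNAH9 exceeded glandular DNAH9 in 8 of 8 biopsies, although the luminal values of cyclic mare U and pregnant mare M lay within the glandular range. Stromal libraries held 3.49 to 12 CPM.

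SPAG17 (100059849), a component of the central apparatus, stood at 33.2 (B), 150 (C), 29.8 (J), 12.5 (M) and 453 CPM (U) in cyclic luminal libraries. In pregnant ones it was 108 (B), 189 (C), 1036 (M) and 212 CPM (U). Glandular values reached 48.5 CPM in cyclic mare C and 23.8 CPM in pregnant mare C, with 0 to 6.84 CPM in the other 6 libraries. Luminal SPAG17 was the higher in 8 of 8 biopsies, although the luminal values of cyclic B, J and M lay within the glandular range, and 1 stromal library held a single count. The pregnant luminal library of mare M was thus the lowest luminal one for FOXJ1 and DNAH9 and the highest for SPAG17.

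**Figure D3:**
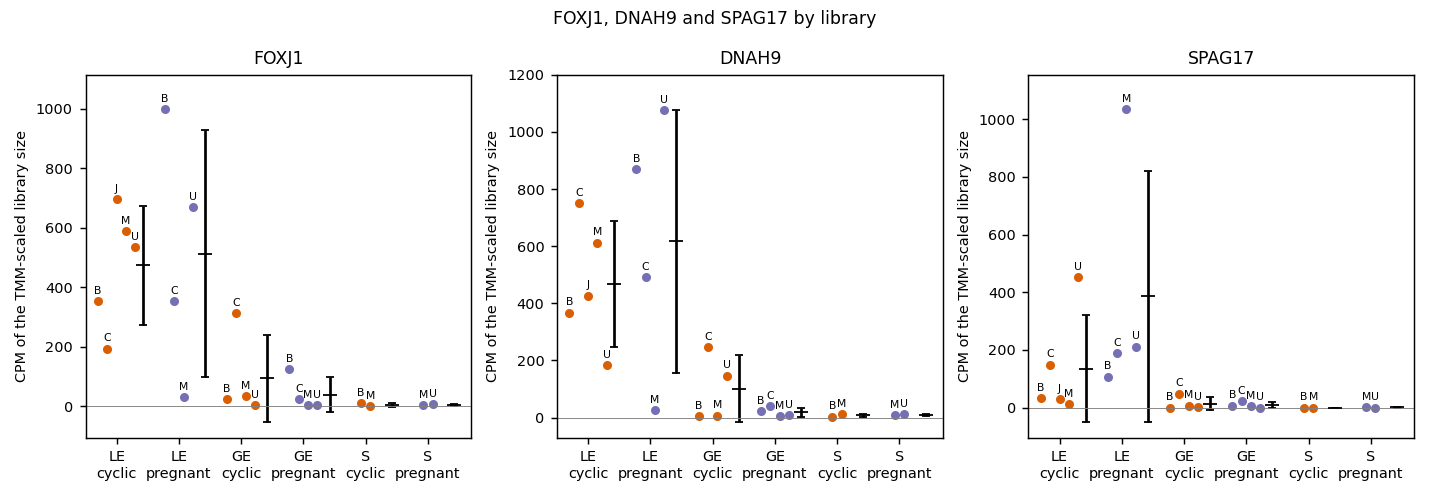
Each panel shows 1 gene (FOXJ1, DNAH9, SPAG17) with a point per library lettered by mare, the CPM of the scaled library size on the vertical axis, and mean and SD in black for each layer and state. Luminal points spread widely, mare C stands above the other cyclic glandular points, and stromal points lie near 0.

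Such swings between genes of 1 library were common. The summed level had a coefficient of variation of 22% over the luminal libraries, whereas the median gene had 119%. In the glands these values were 62.7% and 166%, and in the stroma 4.56% and 192%. In luminal epithelium 20 of the 72 genes had over 50% of their luminal counts in a single library. This number uses raw counts, so deep libraries raise it: cyclic C alone gave 9477 of the 32371 luminal cilia counts. The share over all genes was not computed. The pregnant luminal library of mare M held 1178 cilia counts, of which CFAP210 took 219, SPAG17 201 and the dynein intermediate chain gene DNAI4 134, while 31 of the 72 genes had none.

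To compare the epithelia, counts were summed per mare over both states, and mares B, C, M and U entered with the mare as a block. Of the 72 genes, 48 had enough counts to be tested. By edgeR's quasi-likelihood test, adjusted by Benjamini-Hochberg over all genes, 19 were higher in luminal epithelium and 0 lower, where 3.29% of all 7174 tested genes were higher and 3.65% lower. The median log2 difference, luminal minus glandular, was 3.30 over the 48 genes and -0.25 over all genes. It was also 3.30 with the 3 tested genes that lacked any glandular count set at their bounds. All 4 luminal sums lay above all 4 glandular sums for 24 of the 48 genes, against 5.27% of all tested genes. Of the 48 genes 28 reached the minimum count in each of the 4 luminal sums and 6 in each of the 4 glandular sums. More genes thus met the filter on the luminal side. The median, the count of separated genes and the direction of the calls partly follow from that. ENKUR, CFAP95 and DNAAF11, the 3 tested genes without a glandular count, could be called only as higher in luminal epithelium.

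All 3 outer arm heavy chains, DNAH5, DNAH9 and DNAH11, were higher in luminal epithelium. DNAH9 stood at 596 (B), 630 (C), 399 (M) and 513 CPM (U) in luminal sums and 10.4 (B), 90.7 (C), 4.16 (M) and 83.7 CPM (U) in glandular sums. The means were 534 ± 103 and 47.2 ± 46.3 CPM (SD, n = 4 mares), and the log2 difference was 4.28 ± 0.61 (SE; edgeR adjusted p = 5.25e-10). DNAH5 differed by 3.89 ± 0.76 (258 ± 129 against 18.9 ± 15.8 CPM) and DNAH11 by 3.37 ± 0.73 (265 ± 138 against 29.1 ± 28 CPM). For each of these 3 genes mare C had the highest luminal and the highest glandular sum.

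Of the 8 inner arm heavy chains, 6 were tested and 4 were higher in luminal epithelium. DNAH12 (100050892) was at 357 (B), 818 (C), 645 (M) and 697 CPM (U) in luminal and at 27.4 (B), 149 (C), 12.5 (M) and 6.88 CPM (U) in glandular sums. Its log2 difference of 4.53 ± 0.59 had the smallest p of the 72 genes (edgeR adjusted p = 4.48e-12), and it alone kept its call in all 12 alternative analyses. DNAH7 stood at 255 ± 63.5 against 9.75 ± 18.3 CPM (6.51 ± 0.97), with no glandular count in mares M and U. DNAH10 stood at 265 ± 67.1 against 19.3 ± 29.3 CPM (4.88 ± 0.84), and DNAH6 at 246 ± 180 against 13.6 ± 6.86 CPM (3.95 ± 0.81). Neither DNAH2 (3.0 ± 1.33, edgeR adjusted p = 0.212) nor DNAH3 (2.27 ± 2.12, 0.745) passed.

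FOXJ1 itself differed by 4.18 ± 0.67 (edgeR adjusted p = 5.44e-08). Its luminal sums were 646 (B), 221 (C), 385 (M) and 566 CPM (U), and its glandular sums 51.8 (B), 96.7 (C), 9.71 (M) and 4.59 CPM (U). Within mare C the gap was thus the narrowest.

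In the ruler and tether group 3 of 4 genes were higher in luminal epithelium. CFAP44, part of the tether that holds an inner arm dynein, stood at 435 ± 139 against 40.8 ± 18.6 CPM (3.52 ± 0.59, edgeR adjusted p = 2.84e-07). CCDC40 and CCDC39 form the ruler that spaces the arms and spokes along the microtubule. CCDC40 differed by 4.81 ± 1.32 (108 ± 86.8 against 4.09 ± 3.94 CPM) and CCDC39 by 3.24 ± 1.01 (142 ± 32 against 22.4 ± 19.9 CPM, edgeR adjusted p = 0.0234). The other tether gene, CFAP43, stood at 3.60 ± 1.45 (0.134).

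Among 9 genes of the central apparatus, 7 were tested and 2 were higher in luminal epithelium. SPAG17 differed by 5.28 ± 0.93 (242 ± 161 against 9.42 ± 13.3 CPM, edgeR adjusted p = 1.29e-06) and HYDIN, a protein of a central pair projection, by 2.93 ± 0.78 (231 ± 153 against 32.9 ± 29.1 CPM, 0.00438). HYDIN sums overlapped between the layers, since the luminal sum of mare M was 33.7 CPM. All 7 had positive differences.

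Of 12 microtubule inner proteins, 8 were tested and 4 were higher in luminal epithelium. CFAP210 differed by 3.44 ± 0.69 (296 ± 101 against 30.2 ± 16.8 CPM) and CFAP53, also needed for left-right patterning, by 5.41 ± 1.45 (99.8 ± 49.5 against 3.23 ± 3.72 CPM). ENKUR (31.6 ± 15.8 CPM, edgeR adjusted p = 0.0108) and CFAP95 (31.2 ± 21.5 CPM, 0.0124) passed against glandular sums without a count. CFAP20, a protein of the junction that closes the microtubule pair, had the most negative difference of all (-2.74 ± 1.47, 0.372). Its luminal sums were 5.76 (B), 64.9 (C), 0 (M) and 20.4 CPM (U) and its glandular sums 86.5 (B), 35.2 (C), 20.8 (M) and 156 CPM (U).

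Of 9 radial spoke genes, 4 were tested and 1 passed. CFAP206, which lies at the spoke base, held 1 glandular count, and the pooled ratio of luminal to glandular level was 225 (95% counting interval 39.8 to 8930; edgeR adjusted p = 0.00662). The spoke genes RSPH1 (3.56 ± 1.55), CFAP251 (4.11 ± 1.55) and CFAP61 (2.24 ± 1.52) had adjusted p of 0.0949 to 0.556. Of 8 dynein assembly factors, 5 were tested and 1 passed, DNAAF11 (38.8 ± 15 CPM against no glandular count, 0.00647). DNAAF2, which helps fold the arm motors in the cytoplasm, stood at 20.4 ± 15.2 CPM in luminal against 51.3 ± 16.3 CPM in glandular sums (-1.64 ± 1.44, 0.717) and was lower in luminal epithelium in 7 of 8 biopsies. Of 4 dynein intermediate chain genes, 2 were tested and 0 passed (1 had an unadjusted p under 0.05), with DNAI3 at 3.74 ± 1.30 (0.0559) and DNAI4 at -0.12 ± 1.14 (0.987). Of 14 other cilia and flagella associated proteins, 8 were tested and 0 passed (2 had an unadjusted p under 0.05; median 2.94), among them CFAP97 at -0.65 ± 1.05 (0.911).

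**Figure D4:**
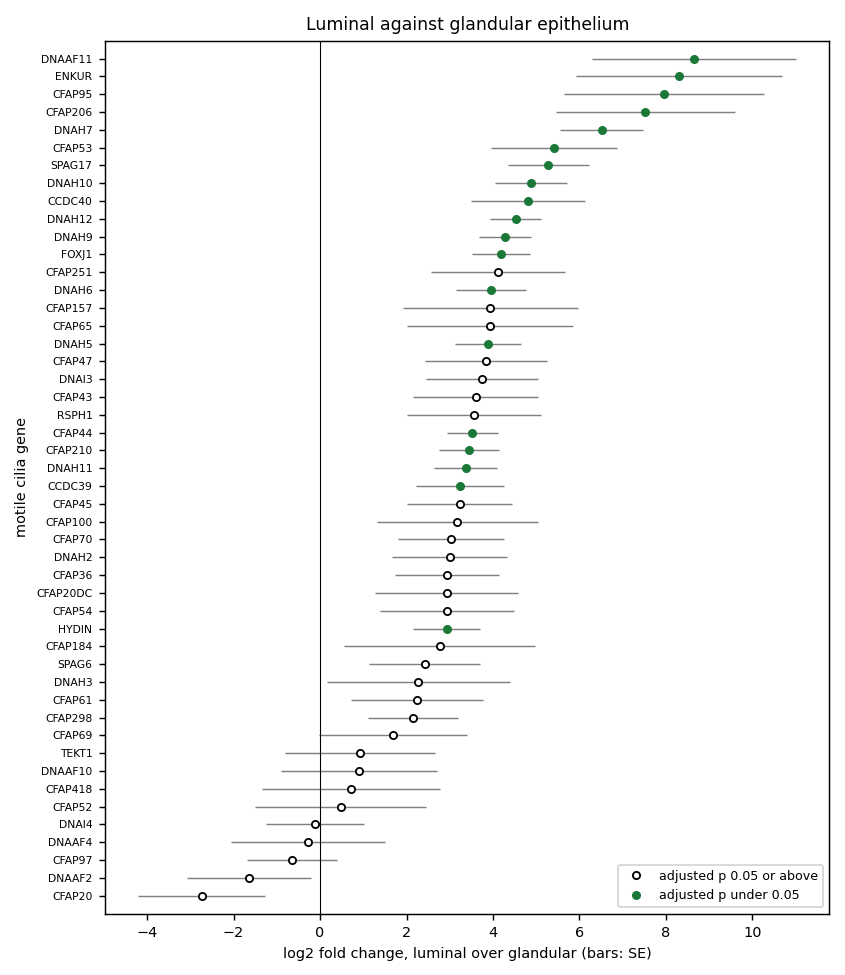
Points are log2 differences, luminal over glandular, for the 48 tested genes with bars of 1 SE; filled green points have an adjusted p under 0.05. The 19 filled points lie between 2.93 and 8.65, and 5 open points lie below 0.

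Without mare C the count of genes that passed was 10, and without mares B, M and U it was 13, 15 and 15. The 10 that passed in each of these 4 fits were DNAH5, DNAH7, DNAH9, DNAH10, DNAH11, DNAH12, CFAP44, CFAP210, FOXJ1 and SPAG17. Within the cyclic libraries alone 6 of 36 tested genes passed (2.61% of all genes in either direction), and within the pregnant ones 7 of 16 (3.26%). The luminal and glandular libraries also differed in other markers: CD74, carried by antigen-presenting cells, was higher in luminal epithelium (3.71 ± 0.39, edgeR adjusted p = 1.27e-18), as was the collagen gene COL1A1 (2.87 ± 0.52, 3.01e-06). The list of 10 lymphocyte and macrophage genes summed to 1600 to 8480 CPM in luminal and 161 to 641 CPM in glandular libraries, and 2 of its 4 tested genes were higher in luminal epithelium. These sums were mainly CD74, at 3400 ± 1600 against 245 ± 65.5 CPM. The other gene that passed was GZMA, at 44.1 ± 39.8 against 0.0999 ± 0.2 CPM (7.31 ± 2.17, edgeR adjusted p = 0.0151). CD3D, at 37.8 ± 56 against 2.74 ± 5.48 CPM, did not pass (5.55 ± 2.62, 0.262). The general leukocyte gene PTPRC, at 73.6 ± 61.2 against 18.8 ± 17.6 CPM, did not pass either (1.60 ± 1.38, 0.705). All 4 tested genes of this list had positive differences, luminal minus glandular. Of 8 fibroblast genes, all tested, 1 was higher there and 6 had positive differences, while DCN (-1.09 ± 1.15) and PDGFRA (-0.52 ± 1.86) were negative. The part of other cells in the cilia differences was not tested.

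The make-up of the cilia counts also differed between libraries. The 11 heavy chain genes made up 39.2% of cilia counts in luminal epithelium, 24.6% in glands and 9.43% in stroma. In luminal libraries this share was 29.8% to 49.1%, apart from 19.6% in pregnant mare M. In glands it was 39.3% in cyclic and 27.4% in pregnant mare C and 22.6% in pregnant mare B, and 6.72% to 13.5% in the other 5 libraries. The cyclic glandular library of mare C, with a summed level of 2948 CPM, had DNAH12 (217 counts), FOXJ1 (200) and DNAH9 (158) on top of its cilia counts. These are also the leading genes over all luminal libraries, and DNAH12 led the pregnant glandular library of mare C too (155 of 1841 counts). The other 6 glandular libraries were led by other genes: CFAP298 in cyclic B (81 of 902 counts), CFAP20 in cyclic U (136 of 747) and pregnant B (127 of 452), DNAAF2 in cyclic M (32 of 119) and CFAP44 in pregnant M (24 of 267). In pregnant U the tektin gene TEKT1 gave 203 of 461 counts, at 490 CPM, and reached at most 9.40 CPM in the other 7 glandular libraries.

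Stroma was compared with luminal epithelium in mares B, M and U. Of 35 tested genes 6 were lower in stroma, where 1.04% of all 4625 tested genes were lower, and the median log2 difference, stroma minus luminal, was -5.89 against -1.07 over all genes. With 3 genes at 0 in stroma set at their bounds the median was -5.41. The stromal sums lay below all luminal sums for 28 of the 35, against 16.6% of all tested genes. As 29 of the 35 reached the minimum count in each luminal sum and 0 in each stromal sum, the tested genes entered mainly through luminal epithelium. The count of separated genes, the median and the direction of the calls partly follow from the filter. FOXJ1 was at 11.1 (B), 2.99 (M) and 7.27 CPM (U) in stroma against 639 (B), 363 (M) and 545 CPM (U) in luminal epithelium, a difference of -6.31 ± 1.43 (edgeR adjusted p = 0.00214). The others were DNAH9 (-5.95 ± 1.44), DNAH12 (-5.41 ± 1.34), CFAP44 (-6.30 ± 1.60), SPAG17 (-8.48 ± 2.36, from 1 stromal count) and DNAH10 (-7.90 ± 2.29, from 1 stromal count), with adjusted p of 0.00543 to 0.0425. For SPAG17 and DNAH10 the size is uncertain, as it depends on a single count. With 1 mare left out, 1 gene passed without mare B, 0 without mare M and 1 without mare U. Each of these fits had fewer samples, so fewer calls follow from the construction. DESeq2 on all 3 mares called 19.

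The few stromal counts came from a narrow group of genes. CFAP20, CFAP418, RSPH9, CFAP97 and CFAP36 gave 60.4% of the 689 stromal cilia counts, and no luminal library was led by any of these. In cyclic M the spoke head gene RSPH9 took 70 of 85 counts (419 CPM, against 0 to 3.73 CPM in all luminal libraries). In cyclic B CFAP97 took 55, CFAP20 41 and CFAP418 28 of 157 counts. In pregnant M CFAP20 took 98 and CFAP36 46 of 297, and in pregnant U CFAP418 took 67 and CFAP69 27 of 150. CFAP20 and CFAP418 also act in cells whose cilia do not beat. Against glandular epithelium 11 genes were tested and 0 passed (1.18% of all 5701 tested genes passed, and 0 of the 11 had an unadjusted p under 0.05; DESeq2 also called 0). CFAP418 had a difference of 3.31 ± 2.98 (stroma minus glandular, edgeR adjusted p = 0.74). CFAP44 and DNAAF2 lay below the glandular sums in all 3 mares, against 20.9% of all tested genes.

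The study's central contrast asks what changes in the uterus when a conceptus is present. In luminal epithelium no cilia gene passed the test between pregnancy and cycle. Of 41 tested genes 0 passed by edgeR, against 0.437% of all 4344 tested genes, and 1 had an unadjusted p under 0.05. DESeq2 also called 0. The summed level was 7369 ± 1620 CPM in 4 pregnant and 6771 ± 1620 CPM in 5 cyclic libraries, and in the 4 mares with both states it was the higher in pregnancy in mares B and U. Differences, pregnant minus cyclic, had a median of 0.08, against -0.04 over all genes, with 23 positive and 18 negative. In 0 of the 41 did the states separate, where 1.45% of all tested genes lay wholly above and 3.27% wholly below the cycle.

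CFAP210, the microtubule inner protein, had the smallest p. It stood at 290 (B), 582 (C), 1250 (M) and 326 CPM (U) in pregnancy and at 229 (B), 108 (C), 269 (J), 6.61 (M) and 311 CPM (U) in the cycle, on the scale of the luminal libraries alone. It was the higher in pregnancy in 4 of 4 mares, and the states overlapped only through cyclic U and pregnant B. The difference was 1.71 ± 0.76 (613 ± 447 against 185 ± 125 CPM, edgeR adjusted p = 0.498). SPAG17 stood at 421 ± 488 against 141 ± 189 CPM (1.56 ± 0.86, 0.697), with 1150 CPM in pregnant M and 464 CPM in cyclic U as extremes of their groups. CFAP70 stood at 22.4 ± 41.2 against 134 ± 103 CPM (-2.54 ± 1.53, 0.751).

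FOXJ1 stood at 556 ± 470 CPM in pregnant and 508 ± 222 CPM in cyclic libraries (0.13 ± 0.69, edgeR adjusted p = 0.993), and DNAH9 at 660 ± 501 against 503 ± 237 CPM (0.40 ± 0.68, 0.973). DNAH12 was at 488 ± 169 against 689 ± 347 CPM (-0.49 ± 0.67, 0.973). These 3 had an SE of 0.67 to 0.69 and most others a larger one, so moderate changes were not detectable, and the absence of calls does not show that pregnancy left cilia genes alone. Pregnant luminal libraries also had the lower mean total, 328900 against 628200 counts. The cyclic mean included 1382614 counts of mare C. The medians were closer, at 369500 and 402500 counts, and the ranges overlapped.

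**Figure D5:**
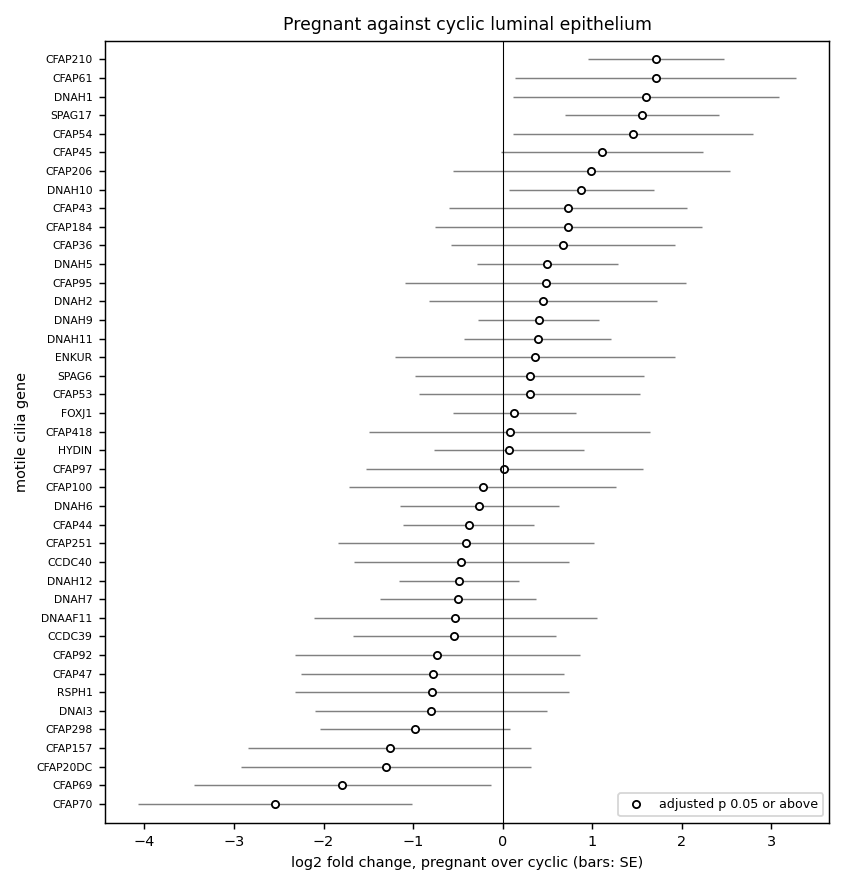
Points are log2 differences, pregnant over cyclic luminal epithelium, for the 41 tested genes with bars of 1 SE. All points are open, since none had an adjusted p under 0.05, and they spread from -2.54 to 1.71 around 0.

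In glandular epithelium 11 genes were tested and 0 passed (0.0623% of all 4816 tested genes passed; 0 of the 11 had an unadjusted p under 0.05, and DESeq2 called 0). The summed level was 922.1 ± 282 CPM in pregnant against 1516 ± 1020 CPM in cyclic glands, and mare B alone was higher in pregnancy. DNAH9 had the smallest p, with 22.6 (B), 34 (C), 3.86 (M) and 7 CPM (U) in pregnancy against 5.23 (B), 233 (C), 6.16 (M) and 139 CPM (U) in the cycle (-2.49 ± 1.42, edgeR adjusted p = 0.803). The high cyclic values were those of mares C and U. CFAP210 was lower in pregnancy in 4 of 4 mares (12.8 ± 9.36 against 63.5 ± 69.5 CPM, -2.27 ± 1.54, 0.932) and DNAI4 stood at -1.99 ± 1.49 (0.982). FOXJ1 stood at -1.23 ± 1.34 (0.999) and at 1.08 without the cyclic library of mare C. In stroma, with 2 libraries per state, only CFAP418 (1.15 ± 2.97) and CFAP20 (0.38 ± 2.97) could be tested, and 0 passed, as did 0% of all 2212 tested genes (88 of these had an unadjusted p under 0.05, but neither cilia gene; DESeq2 called 0).

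A further fit asked whether the pregnancy effects of the epithelia differed, using 16 libraries of the 4 mares that gave both and a block for each biopsy. Of 47 tested genes 0 passed, against 0.0145% of all 6884 tested genes, and 1 had an unadjusted p under 0.05 (DESeq2 called 0). That gene was again CFAP210, whose pregnancy effect in glands minus that in luminal epithelium was -3.83 ± 1.63 (edgeR adjusted p = 0.867). The median over the 47 genes was -0.47, against 1.28 over all genes, and 22 of the 47 were positive and 25 negative. In the separate pregnancy fits the medians over all genes were -0.04 (luminal) and 0.07 (glandular). Values of the present fit are thus not centred on 0, and the cause was not tested. The 47 include ENKUR, CFAP95 and DNAAF11, which had no count in any glandular library. Their glandular pregnancy effect could not be estimated (SE of 19390.27, 16298.74 and 14409.38), so they could not pass. The signs of these genes carry no information, although they enter the median and the counts of signs. DNAH1 was also nearly undetermined (-0.59 ± 17.47). CFAP70 was the most positive at 6.13 ± 3.48 (edgeR adjusted p = 0.867), and DNAH5 stood at -2.62 ± 1.79 (0.888), DNAH9 at -1.33, SPAG17 at -1.30 and FOXJ1 at -0.36.

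Genes that build motile cilia but carry other names were followed as a separate list. Of 62 such axoneme genes 32 were tested between the epithelia, 12 were higher in luminal epithelium and 0 lower, and the median difference was 2.98. Some, such as IQCA1 (64.8 ± 71.7 against 0.539 ± 0.477 CPM), met the filter through luminal epithelium. The median and the direction of the calls partly follow from that. How many genes did so was not computed. Over all tested genes 3.29% were higher, with a median of -0.25. LRRIQ1 stood at 172 ± 79.1 against 8.66 ± 14 CPM (5.63 ± 1.11, edgeR adjusted p = 2.24e-05). The kinase gene STK33 stood at 117 ± 70.1 against 3.92 ± 4 CPM (5.21 ± 1.31, edgeR adjusted p = 0.00235). Between pregnancy and cycle 27 of these genes were tested in luminal epithelium, 22 had positive differences with a median of 0.70, and 0 passed (edgeR, 1 had an unadjusted p under 0.05). Over all 4344 tested genes the median was -0.04 and 0.437% passed. Among the 41 tested of the 72 genes, 23 were positive and the median was 0.08. The share of positive signs over all genes was not computed. Genes of the same libraries are not independent of one another.

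No gene of the lists shared with non-motile cilia passed between the epithelia. Over all 7174 tested genes 3.29% were higher in luminal epithelium and 3.65% lower. With lists this small, 0 calls lies near that share. The median over all genes was -0.25, below the median of each list. Of 28 intraflagellar transport genes, which carry cargo along every kind of cilium, 20 were tested and 0 passed, with 3 at an unadjusted p under 0.05 and a median of 0.57. DYNC2I1, a subunit of the motor of return transport, had the smallest p (2.09 ± 0.82, edgeR adjusted p = 0.114). Of 11 genes of the BBSome and its partners, a membrane cargo adaptor, 8 were tested and 0 passed, also unadjusted (median 1.16), with MKKS at -3.09 ± 2.10 (0.557). Of 19 genes of the transition zone, the gate at the cilium base, 9 were tested and 0 passed, also unadjusted (median 0.33), with AHI1 at 2.02 ± 1.50 (0.625). Whether these lists differ from the axoneme genes was not tested.

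Upstream regulators of multiciliated cells were followed as a list of 19 genes, which summed to 25.6 to 628 CPM in luminal, 11.4 to 411 CPM in glandular and 300 to 826 CPM in stromal libraries. JAG1 alone gave 820 CPM in the stromal library of cyclic M and 530 CPM in that of pregnant U. Of the 19 genes 3 were tested and 0 passed, also unadjusted: the Notch ligand JAG1 (3.35 ± 1.75, edgeR adjusted p = 0.349), E2F5 (0.86 ± 1.49, 0.916) and RFX3, a partner of FOXJ1 (0.44 ± 1.01, 0.94). RFX3 had 716 counts over the 21 libraries, JAG1 721 and E2F5 546, while several others were rare. MCIDAS, which starts the multiciliated fate, had 0 counts in the 21 libraries. CCNO, needed to multiply the basal bodies, had 1. GMNC, another of these regulators, had 47 counts. Of these, cyclic luminal B gave 18, J 15 and C 8, and GE pregnant M gave 4. TP73 had 93 counts, 73 of them in cyclic luminal J, and MYB 121, 85 of them in cyclic luminal C. RFX2 had 172 counts, in luminal cyclic B (10), C (24), J (46) and U (51), with 3 in pregnant luminal B, 1 in cyclic glandular M and 37 in pregnant stromal M. Sperm genes were checked because pregnancy followed insemination: 12 of the 13 measured had 0 counts in every library, and GAPDHS had 10 counts in the pregnant glandular library of mare M.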

How the data were processed

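The authors deposited raw read counts per gene for 24942 gene IDs in 21 libraries. They also deposited tables of signal, counts scaled to an effective library size, of which that of 21 libraries set the gene universe here (each deposited signal value was its count divided by 1 constant per library, to within 5.9e-15 of its size). The table of 19 libraries was not used here. Trimmomatic 0.32.2 and HISAT2 2.0.3 are named in the submitters' processing notes. No source used here names the counting tool, the genome build or the annotation. Per the labels' protocols, single-end reads came from 2 lanes of 1 flow cell, and some libraries, not named, were amplified further. Symbols came from the RefSeq gene table of assembly TB-T2T, used for names only, and 21420 IDs (85.9%) matched. How reads shared by related genes were counted is not given, so close dynein paralogs are uncertain.

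R 4.3.3 with edgeR 4.0.16 was used: quasi-likelihood F-tests, two-sided, on the deposited counts, scaled by TMM and filtered with filterByExpr (10 as the minimum count, 15 as the minimum total), Benjamini-Hochberg adjustment over all genes tested and a threshold of 0.05. All adjusted p-values are from this fit unless DESeq2 1.42.0 is named. The SE is the absolute log2 difference divided by the square root of F. Levels per library are CPM of the TMM-scaled library size over all 21 libraries, and each comparison's means ± SD use its own scaling. For layers, counts were summed per mare, so the deeper library weighs more. Pregnancy was compared within a layer without a block. The alternatives were RLE factors, no filter, DESeq2, single states, unsummed libraries with the biopsy as block, fits with or without the mare as block, leaving out single mares or libraries, and leaving out the libraries of mare M that stand apart. A floor is 3 counts over a group, and floors and intervals cover counting error only. The scripts were tested on simulated data.

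The same letter marks the same mare in both states, which gives the pairing. Deviations of a mare's libraries from their group means correlated with r of 0.0275 to 0.0658 in luminal and -0.0194 to 0.0475 in glandular epithelium. The text names FOXJ1, DNAH9 and SPAG17, genes past the threshold, the 10 most abundant luminal members, the 3 with the smallest p in each pregnancy comparison, of each further list up to 3 genes past the threshold or, with none, that of smallest p, and known regulators. Others were named after their values were seen, such as genes with negative differences or leading single libraries. One gene that this rule names is not reported here. The members and lists were chosen with earlier results of these data known.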

Additional observations from a re-analysis of the deposited data

Results flagged for a closer look

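Chance alone meets the outlier test used here in about 1 in 20 groups if values are normally distributed. For CPM values without a log scale, many from few counts, that rate need not hold. Of 48 combinations of a group with a gene, the summed level or the number of genes with a count, 9 held a library far from the rest of its group. In 6 of these the cyclic glandular library of mare C stood high: DNAH12 at 339 CPM against 12.6 to 34.1 in the other 3 libraries, FOXJ1 at 313 CPM against 4.18 to 34.1, DNAH11 at 189 CPM against 2.09 to 13.6, DNAH10 at 172 CPM against 0 to 13.6, DNAH5 at 86 CPM against 13.2 to 23, and SPAG17 at 48.5 CPM against 0 to 6.82. These 6 values come from 1 library and are not independent of one another.

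SPAG17 stood at 1040 CPM in the pregnant luminal library of mare M, against 108 to 212 CPM in the other 3 pregnant luminal libraries. FOXJ1 stood at 125 CPM in the pregnant glandular library of mare B, against 3.76 to 23.8 CPM in the others. The summed level of the 72 genes was 502 CPM in the pregnant glandular library of mare M, against 1030 to 1110 CPM in the other 3.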

How the results depend on the processing

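Between luminal and glandular epithelium the 19 calls (6.94% of all genes called) became 32 with DESeq2 (14.1%), 6 with cyclic (2.61%) and 7 with pregnant libraries only (3.26%), and 10 to 15 when 1 mare was left out. Between stroma and luminal epithelium the 6 calls (1.43%) became 19 with DESeq2 (11.9%), 1 without a filter, 1 with the biopsy as block, 0 with cyclic or pregnant libraries only, and 0 to 1 without 1 mare. With fewer samples or more genes tested, fewer calls follow from the construction; otherwise the cause was not tested. In these comparisons 0 called genes changed direction. The other 5 comparisons gave 0 calls under each alternative that tested cilia genes. In the stroma against glandular fit with the biopsy as block 0 cilia genes were tested. RLE factors moved the median of all genes from -1.07 to -0.83 in stroma against luminal and from -1.47 to -1.14 in stroma against glandular epithelium. For pregnancy it moved from -0.04 to 0.11 in luminal, 0.07 to -0.05 in glandular epithelium and 0.26 to 0.02 in stroma, and from 1.28 to 0.98 in the difference of effects.

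Paired fits with the mare as block gave 0 calls for pregnancy in luminal (40 tested) and glandular epithelium (11 tested). No replicate block gave 20 calls between the epithelia and 7 between stroma and luminal epithelium. In stroma no block could be fitted, since mare M alone gave both states.

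Genes without a call reversed in some fits. Luminal against glandular, CFAP97 was 0.26 with cyclic libraries only, DNAI4 0.86 and DNAAF4 0.20 without the block; without 1 mare DNAI4 ran from -1.20 to 0.85 and DNAAF4 from -1.11 to 0.50. Leaving out 1 library or mare, pregnancy differences ran from -0.46 to 0.52 for luminal FOXJ1, -3.15 to 1.08 for glandular FOXJ1, -4.22 to 8.07 for stromal CFAP20 and -3.67 to 4.30 for stromal CFAP418. Differences of the effects ran from -1.02 to 0.66 for FOXJ1, -3.12 to 0.68 for SPAG17 and -2.99 to 0.75 for DNAH9.

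CPM without ribosomal RNA or TMM scaling put the mean summed level at 10010 (cyclic) and 9941 (pregnant) in luminal, 2097 (cyclic) and 1257 (pregnant) in glandular, and 802.3 (cyclic) and 757.4 (pregnant) in stromal libraries. Thinning lowered the mean number of genes with a count to 28.6 in cyclic and 26.6 in pregnant glandular and 16 in pregnant stromal libraries. In glands 11 and in stroma 2 genes had enough counts to be tested for pregnancy, although the glandular libraries were on average deeper than the luminal ones (mean total 689000 against 495200 counts).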

Other observations

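A further 21 genes fit the naming rule in the full count table but stood outside the table of 21 libraries, and 16 of them had a count. DNAI2, a second outer arm intermediate chain, had 72 counts, 71 of them in luminal libraries. The tektin gene TEKT3 had 183 counts, 166 in luminal, 15 in glandular and 2 in stromal libraries. The assembly factor DNAAF3 had 32 counts, all in luminal libraries, and CFAP99 had 44 counts, 43 in luminal ones. DNAAF6, another assembly factor, had 33 counts, all in glandular libraries. CFAP107, CFAP73, CFAP97D1, RSPH14 and TEKT4 had 0 counts. These genes were named after their counts were seen, and none was tested.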
